A study of Mus musculus with 10 samples.

Results

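CC chemokines are small secreted proteins, named for a pair of adjacent cysteines, that steer leukocytes through G protein-coupled receptors. In an inflamed colon they recruit monocytes, lymphocytes and plasma cells, and the epithelium makes some of them itself. The 10 genes described here (Ccl2, Ccl3, Ccl4, Ccl5, Ccl6, Ccl7, Ccl8, Ccl9, Ccl20 and Ccl28) were taken by symbol from 23111 named genes of an array table, and each had 1 probe set named by its Entrez gene number. The arrays held 10 colon tumours of C57BL6/J mice, 5 Ucp2+/+ (WT, replicates 1 to 5) and 5 Ucp2-/- (KO, replicates 6 to 10). Both groups had received azoxymethane (AOM), a carcinogen, and dextran sodium sulphate (DSS), a polymer that injures the colon, and were killed 15 weeks after the protocol began. Ucp2 encodes a carrier of the inner mitochondrial membrane. The sources used here name neither the mutant allele nor the number of mice behind the samples, so p-values measure the spread between these samples only.

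Values are the deposited log2 signals, on which a difference of 1 is a doubling. The probe set that carries the gene number of Ucp2 read 10.84 to 11.55 in WT tumours and 9.73 to 9.97 in KO tumours, so it was lower in each KO array and still well above the dim probe sets. A background guide of 5.14 was set, below which 95% of 1088 olfactory receptor genes, presumed silent in colon, had their mean. All 10 chemokines had a mean above it, in 10 of 10 arrays for 9 of them and in 8 of 10 for Ccl4. All 14 epithelial markers and all 7 smooth muscle markers examined were above it too, so the samples held tumour epithelium together with stroma. In such bulk tissue, fewer cells of a type and less RNA per cell cannot be told apart. Of the 10 genes, 8 lie on chromosome 11, with Ccl20 on chromosome 1 and Ccl28 on chromosome 13.

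The promoter windows of 6 of the 10 genes matched in the RefSeq table of build GRCm38.p6, each with 250 bases before and 50 after the start of the gene. The 4 printed belong to Ccl8, which had the widest genotype difference, to the epithelial gene Ccl20, and to the chromosome 11 neighbours Ccl6 and Ccl9. Capitals mark a GAGGAA match on the reverse strand in Ccl8, the kappaB consensus of the inflammatory factor NF-kB in Ccl20, and the longest run shared by Ccl6 and Ccl9.
Ccl8, chr11:82114935-82115234, plus strand: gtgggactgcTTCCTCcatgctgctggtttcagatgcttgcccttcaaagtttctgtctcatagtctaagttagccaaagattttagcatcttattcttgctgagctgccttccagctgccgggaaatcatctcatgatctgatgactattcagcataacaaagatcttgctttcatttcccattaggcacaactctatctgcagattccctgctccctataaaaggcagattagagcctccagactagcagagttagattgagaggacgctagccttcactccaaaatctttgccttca
Ccl20, chr1:83116516-83116815, plus strand: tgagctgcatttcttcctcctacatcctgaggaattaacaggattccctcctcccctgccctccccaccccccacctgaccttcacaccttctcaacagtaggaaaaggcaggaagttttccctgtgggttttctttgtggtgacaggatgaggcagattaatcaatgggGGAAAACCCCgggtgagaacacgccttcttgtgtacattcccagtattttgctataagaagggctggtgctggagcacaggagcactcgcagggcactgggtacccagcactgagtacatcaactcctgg
Ccl6, chr11:83593038-83593337, minus strand: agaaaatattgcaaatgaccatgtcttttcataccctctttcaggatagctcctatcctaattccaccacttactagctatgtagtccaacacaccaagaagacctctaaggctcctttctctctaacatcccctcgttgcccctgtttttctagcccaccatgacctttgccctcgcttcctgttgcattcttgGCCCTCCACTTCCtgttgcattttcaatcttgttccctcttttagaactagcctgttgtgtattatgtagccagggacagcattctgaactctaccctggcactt
Ccl9, chr11:83578587-83578886, minus strand: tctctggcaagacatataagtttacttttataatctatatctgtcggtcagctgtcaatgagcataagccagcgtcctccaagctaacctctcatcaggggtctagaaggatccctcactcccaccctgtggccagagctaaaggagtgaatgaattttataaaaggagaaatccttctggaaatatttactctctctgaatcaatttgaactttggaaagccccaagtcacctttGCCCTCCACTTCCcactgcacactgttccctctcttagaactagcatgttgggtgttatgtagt

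The shared run of Ccl6 and Ccl9 was 13 bases long and began at -55 and -14 relative to the respective starts. The longest run shared by any other pair of the 6 windows was 10 bases. A kappaB consensus match, searched on both strands, was found in 2 of the 6 windows (Ccl20 and Ccl9), against 8.46% of all 32851 windows. GAGGAA, the core bound by the myeloid factor PU.1, lay in 3 of 6 (Ccl3, Ccl8 and Ccl20), against 28.3% of all windows, and TTCNNNGAA, the palindrome bound by STAT factors, in 0 of 6, against 8.3%. These matches describe letters only.

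The first comparison asked whether chemokine signals differed between the genotypes. None of the 10 genes was called changed. By limma, 0 of 10 passed an adjusted p under 0.05, as did 0% of the 23111 genes, and 1 of 10, Ccl6, was under an unadjusted p of 0.05, a share near the 4.77% of all genes. The ranges of the genotypes overlapped in all 10, and did not overlap in 0.835% of all genes. The difference, KO minus WT, was positive in 8 and negative in 2, with a median of 0.16. Over all genes it was positive in 9757 of 23111, with a median of -0.02. Of all genes 13907 had a mean above the guide, as all 10 chemokines did, so the sets differ in signal.

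**Figure D1:**
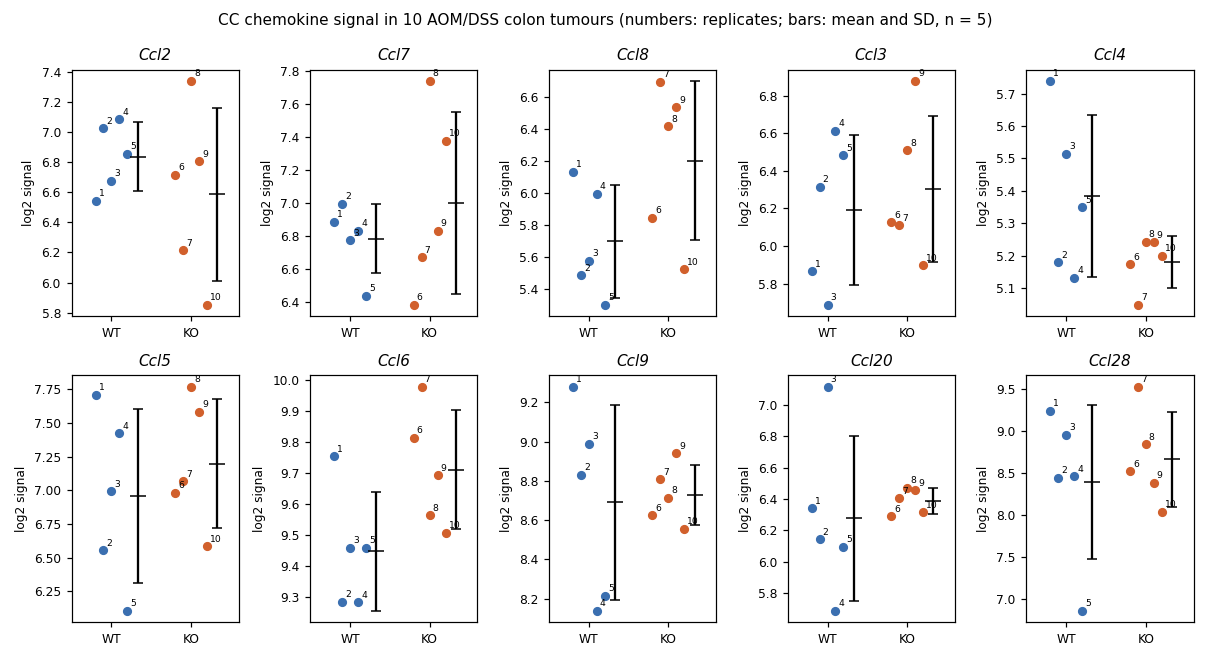
The log2 signal (vertical axis) of each of the 10 chemokines in each tumour, with WT and KO side by side, replicate numbers beside the points, and the mean with SD over 5 arrays in black. The genotypes overlap in each panel, and WT replicate 5 is the lowest tumour for Ccl5, Ccl8 and Ccl28.

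Ccl2 and Ccl7 encode proteins that attract monocytes through the receptor Ccr2, and their neighbour Ccl8 encodes a related protein that in mice acts through Ccr8. Ccl8 read 6.13, 5.49, 5.58, 5.99 and 5.30 in WT replicates 1 to 5 and 5.84, 6.70, 6.42, 6.54 and 5.52 in KO replicates 6 to 10. Thus 3 KO tumours lay above every WT tumour, while KO replicates 6 and 10 lay among the WT values. Its difference was 0.51 ± 0.24 (SE), a 1.42-fold higher mean in KO, with a 95% interval of -0.02 to 1.03 (limma adjusted p = 0.91). Without single arrays it ran from 0.38 to 0.68.

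Ccl2 read 6.54, 7.03, 6.68, 7.08 and 6.85 in WT and 6.72, 6.21, 7.34, 6.81 and 5.85 in KO. Both the highest and the lowest tumour were KO, replicates 8 and 10, and the SD was 0.23 in WT and 0.57 in KO. The difference was -0.25 ± 0.24 (95% interval -0.78 to 0.28, limma adjusted p = 0.917). Ccl7 read 6.89, 6.99, 6.77, 6.83 and 6.44 in WT and 6.38, 6.67, 7.74, 6.83 and 7.38 in KO. KO replicates 8 and 10 were its 2 highest tumours, so KO replicate 10 was lowest for Ccl2 and second highest for Ccl7. The difference for Ccl7 was 0.22 ± 0.23 (limma adjusted p = 0.924) and 0.03 without KO replicate 8.

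Ccl3, Ccl4 and Ccl5 encode inflammatory chemokines that share the receptor Ccr1 or its relatives and draw macrophages, T cells and NK cells. Ccl5, also a product of activated T and NK cells, read 7.71, 6.56, 6.99, 7.42 and 6.11 in WT and 6.98, 7.07, 7.77, 7.58 and 6.59 in KO. It spanned 3.16-fold between the lowest and highest tumour, and both genotypes filled most of that range. The difference was 0.24 ± 0.31 (95% interval -0.45 to 0.93, limma adjusted p = 0.937), and 0.03 without WT replicate 5.

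Ccl3 read 5.87, 6.32, 5.69, 6.61 and 6.48 in WT and 6.13, 6.11, 6.51, 6.88 and 5.90 in KO, with a difference of 0.11 ± 0.22 (limma adjusted p = 0.959). It turned negative without WT replicate 3 (-0.02) or KO replicate 9 (-0.03). Ccl4 read 5.74, 5.18, 5.51, 5.13 and 5.35 in WT and 5.17, 5.05, 5.24, 5.24 and 5.20 in KO, close to the guide of 5.14 in most arrays. WT replicates 1, 3 and 5 were above every KO tumour, and the difference was -0.20 ± 0.11 (95% interval -0.44 to 0.04, limma adjusted p = 0.91).

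Ccl6 and Ccl9 are made by myeloid cells and act through Ccr1. Ccl6 read 9.75, 9.28, 9.46, 9.28 and 9.46 in WT and 9.81, 9.98, 9.56, 9.69 and 9.51 in KO. Every KO tumour was above WT replicates 2 to 5, and WT replicate 1 lay above 3 of the KO tumours. The means were 9.45 ± 0.19 (SD, n = 5) in WT and 9.71 ± 0.19 in KO, a 1.2-fold higher mean, with a difference of 0.26 ± 0.11 (SE; 95% interval 0.01 to 0.51, limma unadjusted p = 0.0402 and adjusted p = 0.91). Ccl9 read 9.28, 8.83, 8.99, 8.14 and 8.22 in WT and 8.62, 8.81, 8.71, 8.94 and 8.56 in KO. Its WT tumours held both ends of the range (SD 0.50 against 0.15 in KO), and the difference was 0.04 ± 0.20, negative without WT replicate 4 or 5 or KO replicate 9.

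Ccl20 and Ccl28 are made by colonic epithelium. Ccl20 attracts cells with the receptor Ccr6, among them B cells and some T cells, and Ccl28 draws IgA plasma cells through Ccr10. Ccl28 read 9.24, 8.44, 8.95, 8.46 and 6.86 in WT and 8.52, 9.53, 8.84, 8.38 and 8.03 in KO. WT replicate 5 was the lowest by over 1 unit, and the gene spanned 6.36-fold, the widest of the 10. The difference was 0.27 ± 0.42 (95% interval -0.65 to 1.19, limma adjusted p = 0.947), and -0.11 without WT replicate 5. Ccl20 read 6.34, 6.14, 7.11, 5.69 and 6.09 in WT and 6.29, 6.40, 6.47, 6.45 and 6.31 in KO. The 5 KO tumours lay between 6.29 and 6.47 while WT replicates 3 and 4 were the highest and lowest, and the difference was 0.11 ± 0.21 (limma adjusted p = 0.955), or -0.04 without WT replicate 4.

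**Figure D2:**
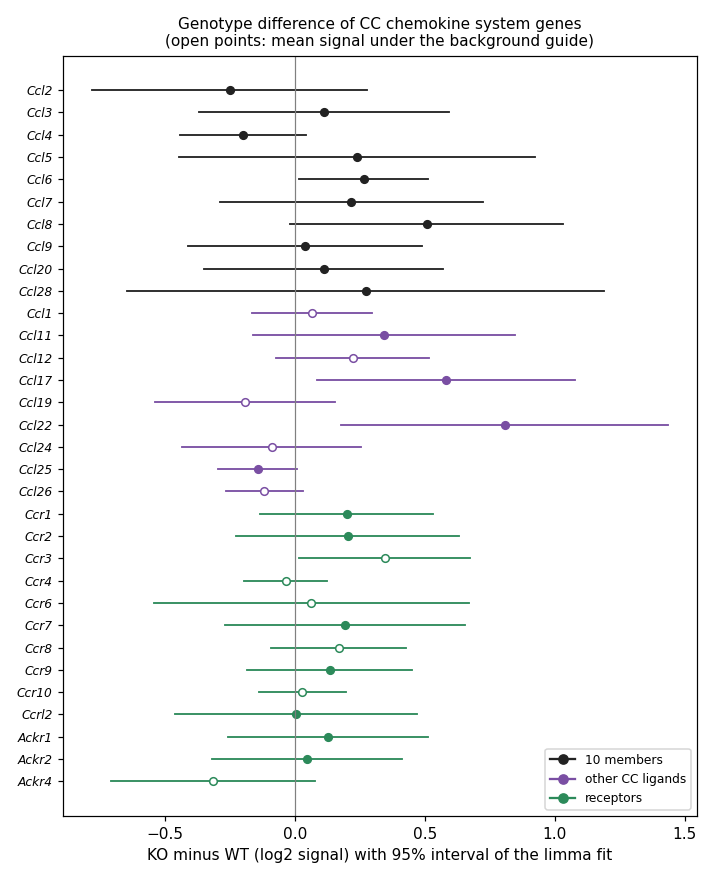
KO minus WT difference in log2 signal (horizontal axis) with the 95% interval of the limma fit for the 10 chemokines, 9 other CC ligands and 13 receptors. Open points have a mean under the background guide, and the intervals of Ccl6, Ccl17, Ccl22 and Ccr3 lie above 0 before any adjustment for the number of genes.

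Of the 9 other CC chemokine ligands measured, 4 had a mean above the guide. The differences were positive in 5 and negative in 4 (median 0.06). Before adjustment 2 of the 9, both positive, had a limma p under 0.05, against 4.77% of all genes, and after it 0 did. Both of these encode ligands of Ccr4 made by dendritic cells and macrophages. Ccl22 read 5.56, 6.17, 6.05, 5.35 and 5.33 in WT and 5.60, 7.19, 6.92, 6.23 and 6.56 in KO. Thus 4 KO tumours lay above every WT tumour, and the difference was 0.81 ± 0.29 (limma unadjusted p = 0.0166, adjusted p = 0.91). Ccl17 differed by 0.58 ± 0.23 (limma unadjusted p = 0.0256, adjusted p = 0.91).

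Of 13 receptors measured, 7 had a mean above the guide. Among the 13, 11 differences were positive and 2 negative. Only 1 of 13 was under an unadjusted limma p of 0.05, against 4.77% of all genes, and 0 passed after adjustment. That 1 was Ccr3, an eosinophil receptor, whose means of 3.30 in WT and 3.64 in KO were under the guide. Ccr1, the receptor for Ccl3, Ccl5, Ccl6 and Ccl9, differed by 0.20 ± 0.15, and Ccr2 by 0.20 ± 0.19 (limma adjusted p = 0.91 and 0.917). Ccr6 had a mean of 4.64, under the guide, and was above the guide in 1 of 10 arrays. With 5.81 in WT replicate 3 and 4.27 to 4.93 in the other arrays, it was highest in the tumour that was also highest for Ccl20. The B and plasma cell score, over 10 markers of which 8 were above the guide, ran from -0.96 to 1.19 in WT, with its maximum in that tumour, and from -0.24 to 0.80 in KO, and its part in these values was not tested. Of 21 measured genes of the NF-kB pathway and other inducers of chemokine genes, 12 differences were positive and 9 negative (median 0.07). Here 2 of 21 were under an unadjusted limma p of 0.05, against 4.77% of all genes, and 0 passed after adjustment. Both were higher in KO, the Toll-like receptor adaptor Myd88 (0.31 ± 0.10) and the interferon regulator Irf7 (0.53 ± 0.23). The inducing cytokines Il1b and Tnf differed by -0.37 ± 0.26 and -0.23 ± 0.17.

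The second question was which chemokines follow the macrophage genes from tumour to tumour. The macrophage score of an array averages 17 measured markers, each taken as its deviation from its own mean of all arrays. It was -0.13, -0.07, -0.20, -0.15 and -0.21 in WT and -0.05, 0.40, 0.26, 0.07 and 0.08 in KO, so each KO tumour was above each WT tumour. Of its 17 markers 16 were above the guide. At an unadjusted limma p under 0.05, 10 were higher in KO, as were 514 of all 23111 genes. After adjustment 0 of the markers passed. That separation of the genotypes by the score was not tested, and the list was chosen with earlier results of these data known. Because of it, the closer relations are also given with genotype in the fit. A slope is the change in log2 signal per unit of score. Scores of 18 T and NK cell markers, 12 above the guide, and of 14 epithelial markers were set beside it. WT replicate 5 had the lowest value of all 3 scores. A smooth muscle score of 7 markers ran from -0.79 to 0.23 in WT and from -0.64 to 0.94 in KO, highest in KO replicate 7 like the macrophage score, and its part in the relations with the scores was not tested.

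Ccl8 followed the macrophage score most closely among the 10 chemokines, and that relation missed the threshold over all genes. Its r was 0.728 (permutation p = 0.0165) and its rho 0.624 (permutation p = 0.061) over 10 arrays, with a limma adjusted p of 0.255. The slope was 1.73 ± 0.50 (SE), 1.86 in the fit with genotype (limma adjusted p = 0.64), and 1.52 to 1.90 without single arrays. Without KO replicates 7 and 8, the 2 arrays farthest from the median score, r was 0.391 and the slope 1.41, over a narrower range of scores.

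Ccl6 came next, with r = 0.569 and rho = 0.6 (permutation p = 0.0879 and 0.0726, limma adjusted p = 0.452), and r = 0.31 without KO replicates 7 and 8. Its slope was 0.63, and 0.26 with genotype in the fit (limma adjusted p = 0.943). The monocyte attractant genes differed from one another, with r = 0.424 for Ccl7 (rho 0.37, permutation p = 0.219 and 0.296) and r = -0.223 for Ccl2 (rho -0.224, permutation p = 0.535 and 0.537). Of the epithelial genes, Ccl28 had r = 0.465 (permutation p = 0.179) and Ccl20 r = 0.112 (permutation p = 0.743), with rho of 0.261 and 0.394 (permutation p = 0.468 and 0.263). Ccl4 had the most negative value, r = -0.532 (rho -0.455, permutation p = 0.104 and 0.193). The remaining 3, Ccl3, Ccl5 and Ccl9, had r of 0.128, 0.299 and 0.155, and rho of 0.0909, 0.358 and 0.0545 (permutation p of 0.312 or more).

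In counts, 0 of 10 chemokines passed the adjusted threshold for the macrophage score, against 0.0563% of the other genes, and 1 of 10 was under an unadjusted p of 0.05, against 11.4%. The median r was 0.227 over the 10 and -0.105 over all genes, those under the guide included. With genotype in the fit, 0 of 10 were under an unadjusted p of 0.05. The 30 relations of the 10 chemokines with the 3 scores were tested in the same way, with p-values adjusted over all genes of each fit.

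**Figure D3:**
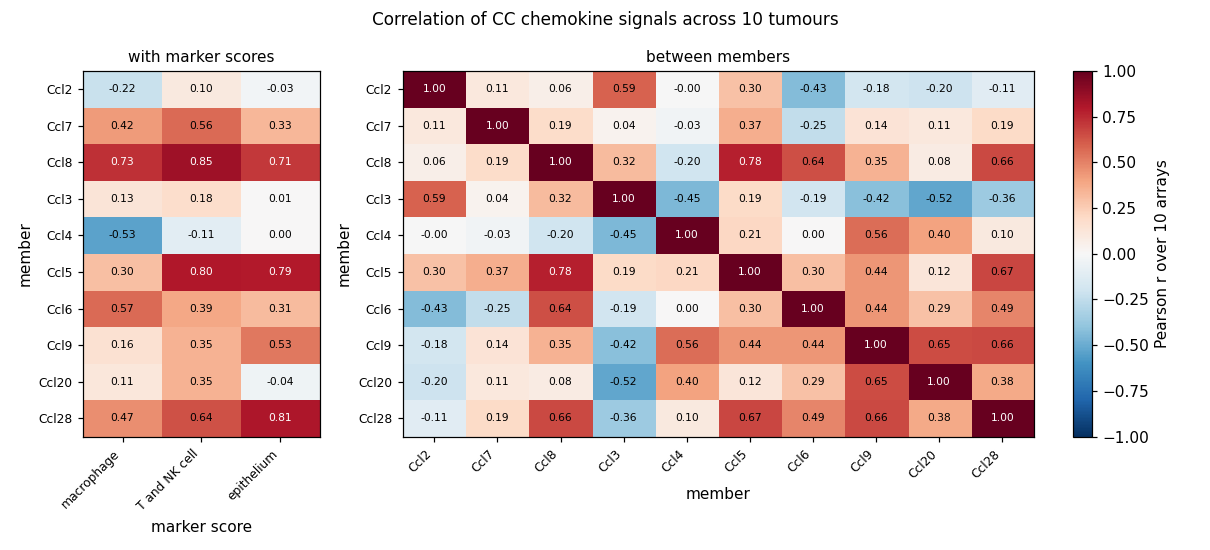
Pearson r over 10 arrays of each chemokine with the 3 marker scores (left) and with each other chemokine (right), coloured from -1 (blue) to 1 (red). Ccl5 and Ccl8 have the highest values with the T and NK cell score, and Ccl28, Ccl5 and Ccl8 with the epithelium score.

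With the T and NK cell score, Ccl8 and Ccl5 had the closest relations, and both just missed the threshold. Ccl8 had r = 0.848 and rho = 0.842 (permutation p = 0.00205 and 0.00372, limma adjusted p = 0.0528), and r = 0.831 without KO replicate 8 and WT replicate 5, the arrays farthest from the median. It passed when genes under the background guide were left out of the test (adjusted p = 0.0421), and without WT replicate 1 or 3. Ccl5 had r = 0.798 and rho = 0.83 (permutation p = 0.006 and 0.00466, limma adjusted p = 0.0794), r = 0.572 without those 2 arrays, and passed without WT replicate 1 (adjusted p = 0.0366). With genotype in the fit the slopes went from 1.53 to 1.42 for Ccl8 and from 1.63 to 1.98 for Ccl5 (limma adjusted p = 0.139 and 0.101).

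Ccl28 and Ccl7 were under an unadjusted limma p of 0.05 with this score as well. Ccl28 had r = 0.637 and rho = 0.491 (permutation p = 0.0466 and 0.153), with r = 0.423 without KO replicate 8 and WT replicate 5. Ccl7 had r = 0.565 and rho = 0.309 (permutation p = 0.0874 and 0.389), and its r was -0.11 without those arrays. Ccl20 had a low r of 0.345 and a higher rho of 0.745 (permutation p = 0.327 and 0.0177). The other 5 had r of -0.109 (Ccl4) to 0.385 (Ccl6) and rho of -0.00606 to 0.321, with permutation p of 0.273 or more. Thus 4 of 10 were under an unadjusted p of 0.05, against 15.9% of all other genes, and 0 of 10 passed after adjustment, against 0.58%. With genotype in the fit, 3 of 10 were under an unadjusted p of 0.05. The macrophage and T and NK cell scores were themselves related (r = 0.706, rho = 0.527, permutation p = 0.0234 and 0.123, and r = 0.424 without KO replicates 7 and 8). Whether Ccl8 followed one more closely than the other was not tested.

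With the epithelium score, Ccl28 had r = 0.811 and rho = 0.576 (permutation p = 0.0124 and 0.0891, limma adjusted p = 0.0789). Its slope was 3.87, and 2.28 without WT replicate 5, which had a score of -0.37 and a Ccl28 signal of 6.86. Within the KO tumours alone r was 0.669. Without WT replicates 5 and 1, r was 0.232 and the slope 1.44, over a narrower range of scores. The size of the relation thus depended on those tumours. Ccl5 (r = 0.792, rho = 0.721, permutation p = 0.00391 and 0.0239) and Ccl8 (r = 0.705, rho = 0.782, permutation p = 0.0115 and 0.0108) missed the adjusted threshold too. Without the same 2 arrays their r was 0.526 and 0.764. Ccl20, the other epithelial chemokine, had r = -0.0423 (rho 0.0788, permutation p = 0.888 and 0.838). The other 6 had r of -0.0281 (Ccl2) to 0.53 (Ccl9), with permutation p of 0.119 or more, and rho of -0.248 (Ccl4) to 0.382 (Ccl6), with permutation p of 0.28 or more. In all, 3 of 10 were under an unadjusted p of 0.05, against 13.1% of other genes, and 0 of 10 passed, against 0.351%. With genotype in the fit, 3 of 10 were again under an unadjusted p of 0.05. The limma adjusted p were 0.125 for Ccl28, 0.147 for Ccl5 and 0.224 for Ccl8. The T and NK cell and epithelium scores had r = 0.608 and rho = 0.479 with each other (permutation p = 0.0612 and 0.166). Their r was 0.383 without KO replicate 8 and WT replicate 5. Whether the relations with these scores were separate was not tested.

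**Figure D4:**
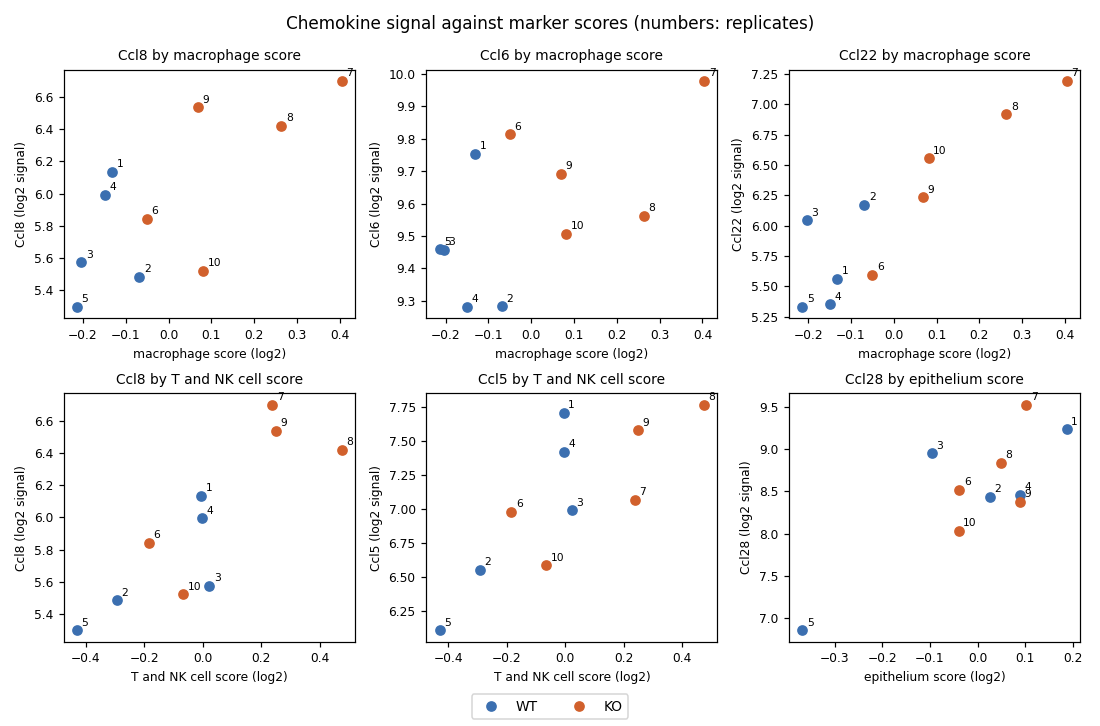
Log2 signal (vertical axes) of Ccl8, Ccl6, Ccl22, Ccl5 and Ccl28 against marker scores (horizontal axes), 1 point per tumour with its replicate number, WT in blue and KO in orange. Ccl22 is highest in KO replicates 7 and 8, Ccl8 is highest in KO replicates 7, 9 and 8, and WT replicate 5 stands alone in the plot of Ccl28.

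Among the other CC genes, 1 of 9 ligands was called with the macrophage score, against 0.0563% of all other genes. At an unadjusted limma p under 0.05 there were 4 of 9, against 11.4%. Ccl22 had r = 0.904 and rho = 0.903 (permutation p = 0.00035 and 0.00083, limma adjusted p = 0.0489), and r = 0.726 without KO replicates 7 and 8. The call was kept without WT replicate 3 and lost without any 1 of the other 9 arrays (adjusted p of 0.0669 to 0.548), with genotype in the fit (adjusted p = 0.546), and when the 3 C1q chains were left out of the score (adjusted p = 0.0516). The slope was 2.86, 2.71 to 3.22 without single arrays and 3.24 with genotype, so the p-value moved more than the size. Ccl17, the eosinophil attractant gene Ccl11 and the monocyte attractant gene Ccl12, whose mean was under the guide, had a positive relation at an unadjusted limma p under 0.05 and were not called (limma adjusted p of 0.155, 0.219 and 0.245).

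No receptor was called with the macrophage score (0 of 13, against 0.0563% of all other genes). With the T and NK cell score 2 of 13 were called, against 0.58%. Of the 13, 7 had a mean above the guide. At an unadjusted limma p under 0.05 there were 2 of 13 with the macrophage score, against 11.4% of all other genes, and 8 of 13 with the T and NK cell score, against 15.9%, where r was positive for 13 of 13. The called receptors were Ccr3 (r = 0.891, rho = 0.855, permutation p = 0.00014 and 0.00277, limma adjusted p = 0.0357) and Ccr8, the receptor of Ccl8 in mice (r = 0.899, rho = 0.903, permutation p = 0.00043 and 0.00065, limma adjusted p = 0.0485). Without KO replicate 8 and WT replicate 5 their r was 0.836 and 0.84. The means of both were under the guide. Both calls ended with genotype in the fit (adjusted p = 0.115 and 0.105), and without WT replicates 2, 4 or 5 or KO replicates 6, 7, 8 or 9, and that of Ccr8 also without KO replicate 10 or when the arrays were quantile normalized again. Their slopes, 1.02 and 0.70, were 0.77 to 1.2 and 0.62 to 0.79 without single arrays, and 0.93 and 0.75 with genotype.

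The chemokines did not move as a single group. Of the 45 pairs, 32 had a positive and 13 a negative r, with a median of 0.186. The highest was Ccl5 with Ccl8 (r = 0.776, rho = 0.83, permutation p = 0.0103 and 0.00519, adjusted p = 0.155 by limma over all genes with Ccl5 as the covariate), and r was 0.654 without WT replicate 5 and KO replicate 8. By r with Ccl5, Ccl8 ranked 286 among all other genes, so it was not the closest gene to it. The lowest was Ccl3 with Ccl20 (r = -0.518, rho = -0.297, permutation p = 0.119 and 0.408). Ccl6 and Ccl9, whose promoter windows share the capitalised run, had r = 0.443 (rho 0.297, permutation p = 0.202 and 0.406).

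The genes most like each chemokine were those with the highest r over the 10 arrays, as a description of these tumours. For Ccl5 they were Gbp2 and Gbp3, interferon-induced GTPases, and Spats2l, with r of 0.965 to 0.967 and at least 0.926 without WT replicate 5 and KO replicate 8. For Ccl8 they were Adap1, Ube2l6, an enzyme that attaches the interferon-induced modifier Isg15, and Loxl1, an oxidase of elastic fibres, with r of 0.926 to 0.948, and at least 0.869 without KO replicate 7 and WT replicate 5. Those of Ccl28 were Cutal, Klk1b5 and Plcl2 (r of 0.981 to 0.99), and r was at least 0.915 without WT replicate 5 and KO replicate 7. Klk1b5 and the Gbp genes have near relatives in their families, and the files do not show whether probes are shared.

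For Ccl2 the nearest genes were Adamts1, a matrix protease, Col5a2, a collagen chain, and the nuclear protein gene Csrnp1 (r of 0.87 to 0.922). For Ccl7 they were Rps28, Mefv and Csf2rb, the shared receptor chain of several myeloid growth factors (0.907 to 0.926). Those of Ccl3 were Ptpmt1, Tmem234 and Gata6 (0.899 to 0.924), and those of Ccl6 were Alkbh3os1, Mb21d2 and Cr1l (0.851 to 0.909). For Ccl4 they were Cd163, Gng4 and Sim2 (0.952 to 0.954), for Ccl9 Enpp7, Myl2 and Cacng8 (0.93 to 0.939), and for Ccl20 Haao, Arhgap30 and Rubcnl (0.93 to 0.95). Of these, Cd163, Sim2, Alkbh3os1, Rps28, Mefv, Enpp7, Myl2 and Rubcnl had a mean under the guide. Without the 2 arrays farthest from the median of each chemokine, r was lower for most of these genes, at its lowest 0.615 for Csf2rb with Ccl7, 0.691 for Sim2 with Ccl4 and 0.709 for Cr1l with Ccl6. Cd163 is also a marker of the macrophage score, with which Ccl4 itself had a negative r.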

How the data were processed

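The authors deposited 1 value per probe set and array, used here as a log2 signal. Per the submitters' processing notes RMA and Partek were used. The sources used here name no versions, log base or genome build, and base 2 was taken from the range of the values. Amplified, biotin-labelled total RNA was hybridised to 1 array per sample, per the labels' protocols. Equalised arrays hide a shift of all genes. No detection call came with the values, and arrays give no count depth, so their number limits the precision. Array medians were 5.84 to 5.93, correlations between arrays 0.964 to 0.993, and 0 pairs were identical.

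The platform annotation named 23111 of 23747 probe sets, and 636 were not listed. KO was compared with WT, and each gene regressed on a marker score, by lmFit and eBayes of limma 3.58.1 in R 4.3.3 across all named genes with Benjamini-Hochberg adjustment, called at adjusted p under 0.05. Genes of a score's own list were left out of its counts. Correlations carry two-sided permutation p-values from 100000 resamples. The fits were tested on simulated data. The labels number WT 1 to 5 and KO 6 to 10 and name no batch.

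The 10 genes and the lists were chosen with earlier results of these data known. Named besides them were receptors, up to 4 genes per list with the smallest p, and the 3 genes most like each member, leaving out predicted genes, olfactory and vomeronasal receptors, microRNAs and receptor segments. The cytokines Il1b and Tnf, and the calls with scores, were named after their values were seen. Alternatives left out arrays or dim genes, normalized again, changed the variance model, weighted arrays, or added a score or genotype as a covariate. Promoters came from RefSeq.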

Additional observations from a re-analysis of the deposited data

How the results depend on the processing

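No paired analysis was made because the labels name no pairing of WT with KO tumours. With 5 tumours a genotype, the 95% interval of the difference was narrowest for Ccl4 (-0.44 to 0.04) and widest for Ccl28 (-0.65 to 1.19). In the genotype comparison, 0 of the 10 chemokines were called under any alternative, and the count over all genes, 0, was 2 without dim genes, 1 with an intensity trend and robust estimation, 1 with the epithelium score as a covariate, and 0 to 2 without single arrays (2 without WT replicate 3, 1 without KO replicate 8).

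The macrophage score as a covariate turned the differences of Ccl5 (-0.018), Ccl7 (-0.11), Ccl8 (-0.064), Ccl9 (-0.11) and Ccl28 (-0.64) negative. That score was at most -0.07 in WT and at least -0.05 in KO, so this fit can hardly tell genotype and score apart. The epithelium score as a covariate turned the difference of Ccl9 negative (-0.042). Without single arrays the difference ran from -0.032 to 0.22 for Ccl3, -0.10 to 0.19 for Ccl9, -0.036 to 0.32 for Ccl20 and -0.11 to 0.48 for Ccl28.

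Counts of genes following a score depended on single arrays. The macrophage count of 13 was 0 without the 2 farthest arrays, 0 with genotype in the fit, and 0 to 113 without single arrays (leaving out WT replicate 2 or KO replicate 7 or 8 gave 0, WT replicate 4 or 5 gave 1, KO replicates 9 and 6 gave 3 and 5, and WT replicate 3 gave 113). That of the T and NK cell score, 134, was 0 in both of those fits and 0 to 257 without single arrays (KO replicate 8 gave 0, WT replicate 2 or 5 gave 1, KO replicates 6, 7 and 9 gave 14, 26 and 48, WT replicate 4 gave 73, and WT replicate 1 gave 257). That of epithelium, 81, was 0 without the 2 farthest arrays, 16 with genotype, 1 when quantile normalized again and 0 to 164 without single arrays (WT replicates 5 and 1 gave 0 and 7, KO replicates 6, 7 and 8 gave 16, 24 and 37, WT replicate 2 gave 45, and WT replicates 3 and 4 gave 163 and 164).

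Several slopes changed sign, among them those of Ccl7 on the T and NK cell score (0.86) and Ccl9 on the epithelium score (1.19). On the macrophage score, Ccl20 had -0.11 without the 2 farthest arrays and -0.075 with genotype, and Ccl2 had 0.10 with genotype. Without single arrays Ccl2 ran from -1.20 to 0.23, Ccl3 from -0.11 to 0.77, Ccl9 from -0.056 to 0.51 and Ccl20 from -0.091 to 0.76. On the T and NK cell score, Ccl2 had -0.56 and Ccl7 -0.17 without the 2 farthest arrays, and Ccl4 had 0.20 with genotype. Without single arrays Ccl2 ran from -0.56 to 0.40, Ccl3 from -0.022 to 0.61 and Ccl4 from -0.16 to 0.013. On the epithelium score without the 2 farthest arrays, Ccl2, Ccl4 and Ccl9 had 1.77, -1.29 and -0.87. With genotype, Ccl2 and Ccl3 had 0.12 and -0.070, and when normalized again 0.17 and -0.0075. Without single arrays Ccl2 ran from -0.26 to 0.68, Ccl3 from -0.29 to 1.61, Ccl4 from -0.54 to 0.46 and Ccl20 from -1.91 to 0.31. Ccl28 was called with this score without WT replicate 3 (adjusted p = 0.0271). The cause of these changes was not tested.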
